A study of Mus musculus with 4 samples.

Results

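The ARID family was examined in RNA-seq counts of B220+ B cells sorted to high purity from the spleen, with Arid3a set against 8 of its relatives. The members were taken by symbol from the gene names in the deposited counts, and all 9 (Arid3a, Arid3b, Arid1a, Arid1b, Arid2, Arid4a, Arid4b, Arid5a and Arid5b) were found among 55401 listed genes. There were 2 libraries from NSD1B WT mice (Mb1-Cre+ NSD1+/+) and 2 from NSD1B KO mice (Mb1-Cre+ NSD1fl/fl), all of strain C57BL/6J. Both genotypes carry the Mb1-Cre transgene, which acts in the B lineage from its early stages, so they differ in the floxed exons 6-8 of Nsd1. The study used male and female mice of 7 to 9 weeks, but the age and sex behind each library, and whether mice were pooled, could not be learned from the labels or Methods. If the 2 libraries of a genotype come from the same preparation, the p-values below measure technical spread alone.

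ARID stands for AT-rich interaction domain, a DNA-binding fold first described in proteins that bind A/T-rich DNA. ARID3A, also called Bright, was found as an activator of immunoglobulin heavy chain transcription in B cells and is known for its part in B1 cell development. The other members mostly work inside large chromatin complexes. ARID1A and ARID1B are alternative subunits of the SWI/SNF complex BAF, ARID2 belongs to its sister complex PBAF, and ARID4A and ARID4B bind the retinoblastoma protein and the SIN3 histone deacetylase complex. ARID5B works with the histone demethylase PHF2, and ARID5A is known for stabilizing cytokine mRNAs. The question here was whether the change of Arid3a without NSD1 was shared by its paralogs.

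In GENCODE M21 (mm10) the transcripts of the 9 members shared 0 stretches of 50 bases between any pair of members. Arid3a lies on the plus strand of chromosome 10 from 79927043 to 79955018, and its principal transcript has 9 exons and 1803 coding bases. Its closest relative in the set, Arid3b, is encoded on chromosome 9 (57790353 to 57836793, minus strand), with 9 exons and 1704 coding bases. The SWI/SNF members have far longer coding sequences. Arid1a (chromosome 4, 133679008 to 133756769, minus strand) has 6861 coding bases, Arid1b (chromosome 17, 4994332 to 5347656, plus strand) 6732 and Arid2 (chromosome 15, 96287518 to 96404992, plus strand) 5484. Arid4a (chromosome 12, 71015990 to 71098592) and Arid4b (chromosome 13, 14063232 to 14199603), both on the plus strand with 24 exons, have 3783 and 3942 coding bases. Arid5a is on chromosome 1 (36307733 to 36324029, plus strand), and Arid5b shares chromosome 10 with Arid3a but lies apart from it (68092520 to 68278740, minus strand). Exons of Arid3b overlap 360 bases of the antisense gene Gm17231, which had 0 counts in all 4 libraries. Exons of Arid4b overlap 257 bases of Ggps1 on the opposite strand, or 1.51% of its exon length, and with an unknown strand setting the reads of this stretch cannot be told apart. A stretch of 92 bases of Arid2 is also annotated as the microRNA gene Gm25397, at 0 counts in all libraries.

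Promoter sequences from RefSeq (GRCm38.p6), covering 250 bases before to 50 after a start site, matched 6 of the 9 members. The 3 sequences below are shown because Arid1a and Arid4b rose and Arid3b, the sister gene of Arid3a, fell in NSD1B KO. Capitals mark the GC box (GGGCGG), the CCAAT box (CCAAT) and the ETS site (CCGGAAG), each searched on both strands. The windows are chr4:133756720-133757019 (minus strand) for Arid1a, chr13:14063534-14063833 (plus strand) for Arid4b and chr9:57836730-57837029 (minus strand) for Arid3b, written 5′ to 3′.
Arid1a: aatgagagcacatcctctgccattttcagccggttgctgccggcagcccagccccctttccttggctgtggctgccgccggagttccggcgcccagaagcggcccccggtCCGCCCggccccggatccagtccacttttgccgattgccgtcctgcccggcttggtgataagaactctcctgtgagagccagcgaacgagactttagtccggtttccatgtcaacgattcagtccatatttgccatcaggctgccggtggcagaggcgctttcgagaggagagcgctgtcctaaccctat
Arid4b: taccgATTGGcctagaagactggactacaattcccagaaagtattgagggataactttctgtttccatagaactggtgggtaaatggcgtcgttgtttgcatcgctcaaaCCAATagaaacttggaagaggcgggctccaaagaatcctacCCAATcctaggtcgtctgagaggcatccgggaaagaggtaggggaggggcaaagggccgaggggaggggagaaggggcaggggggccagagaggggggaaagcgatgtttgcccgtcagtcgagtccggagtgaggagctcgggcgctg
Arid3b: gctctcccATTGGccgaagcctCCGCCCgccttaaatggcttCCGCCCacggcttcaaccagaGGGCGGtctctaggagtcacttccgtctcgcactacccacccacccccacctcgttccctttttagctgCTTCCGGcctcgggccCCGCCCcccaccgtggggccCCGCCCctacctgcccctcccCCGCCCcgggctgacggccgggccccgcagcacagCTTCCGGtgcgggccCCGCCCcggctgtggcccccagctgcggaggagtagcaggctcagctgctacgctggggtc

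Arid1a and Arid3b each have another window in the table, described below without its sequence. The printed windows held 22 CpG dinucleotides in Arid1a, 14 in Arid4b and 25 in Arid3b, against a median of 7 over 32851 promoter windows. The Arid3b window contained GC box, CCAAT and ETS letters, the Arid1a window the GC box alone, and the Arid4b window the CCAAT box alone. Of all windows, 35.7% held the GC box, 37.4% the CCAAT box and 8.86% the ETS letters. E2F letters (TTTCCCGC or TTTGGCGC), the TATA box (TATAAA) and the A/T-rich letters ATTAAA were also searched, and the 3 printed windows held none of them. They stand in 1.07%, 0.514%, 13.6% and 13.9% of all windows. The other Arid1a window (chromosome 4, 133753936 to 133754235) held TTTCCCGC, the GC box and 36 CpG dinucleotides. The other Arid3b window (chromosome 9, 57836435 to 57836734) held 23 CpG dinucleotides and none of the letters searched.

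Counts on genes ranged from 6769118 to 7566834 per library, and 44.3% to 44.6% of the counted reads lay on no gene. Nsd1, the targeted gene, had 497 and 480 counts in NSD1B WT and 284 and 280 in NSD1B KO, a log2 fold change of -0.74 (SE 0.11), which checks the labels only in part because the counts cover the whole gene. Markers of other cells moved with genotype. Over the erythroid genes the summed level was 35.6 to 39.6 CPM (library-scaled counts, by edgeR's TMM method) in NSD1B WT and 1690 to 1940 CPM in NSD1B KO, with 5 of 5 tested genes higher. Over 7 myeloid genes it was 4540 to 4620 and 5750 to 6110 CPM, with 5 of 6 tested genes higher and Mpo at 0. Most of that sum was Lyz2 (mean 4490 CPM in NSD1B WT and 5720 in NSD1B KO). S100a8 was the gene that fell, from 39 and 28 counts to 0 and 0, while S100a9 went from 0 and 0 to 13 and 13. Plasmacytoid dendritic cells can carry B220, and their genes Siglech, Klk1 and Pacsin1 were at 0 in all 4 libraries. The list summed to 63.1 to 68.3 CPM in NSD1B WT and 106 CPM in both NSD1B KO libraries. Nearly all of this was Bst2, the 1 tested gene, which was higher (mean 65.1 CPM in NSD1B WT and 106 in NSD1B KO). Ccr9 went the other way, from 3 and 5 counts to 0 and 0. The plasma cell list summed to 216 to 231 and 170 to 174 CPM (1 higher and 2 lower of 3 tested, Sdc1 and Tnfrsf17 at 0). The T cell list summed to 34.5 to 37.1 and 50.4 to 52.4 CPM (2 higher and 2 lower of 4 tested, Cd4 and Cd8a at 0). The 8 defining B cell genes summed to 12600 to 12900 and 11200 to 12200 CPM, with 1 higher and 5 lower of 8 tested, and among them Pax5 fell (log2 fold change -3.29, SE 0.20). The part of these cells in the changes below was not tested, and fewer cells of a type cannot be told apart from less RNA per cell.

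Of the 9 ARID genes, 5 rose, 2 fell and 1 did not pass the threshold in NSD1B KO, and Arid5a had too few counts to be tested. The threshold was an adjusted p below 0.05 by edgeR's quasi-likelihood test, fitted over 11657 genes, with a fold change above 1.2. The risers were Arid2, Arid3a, Arid1a, Arid4b and Arid5b, and the genes that fell were Arid3b and Arid4a. Changes were common in these libraries, since 37.1% of all tested genes were called higher and 41.1% were called lower. The 7 of 8 tested members past the threshold are thus close to the 78.2% called over all genes. Rises of at least 1 on the log2 scale were seen in 4 of 8 tested members and in 25.2% of all tested genes. The median log2 fold change was 1.21 over the tested members and -0.10 over all tested genes. The CPM of the 2 genotypes did not overlap in any of the 8 tested members, nor in 88.1% of all tested genes. Among the 11657 tested genes, 2203 had 0 counts in both libraries of 1 genotype.

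**Figure D1:**
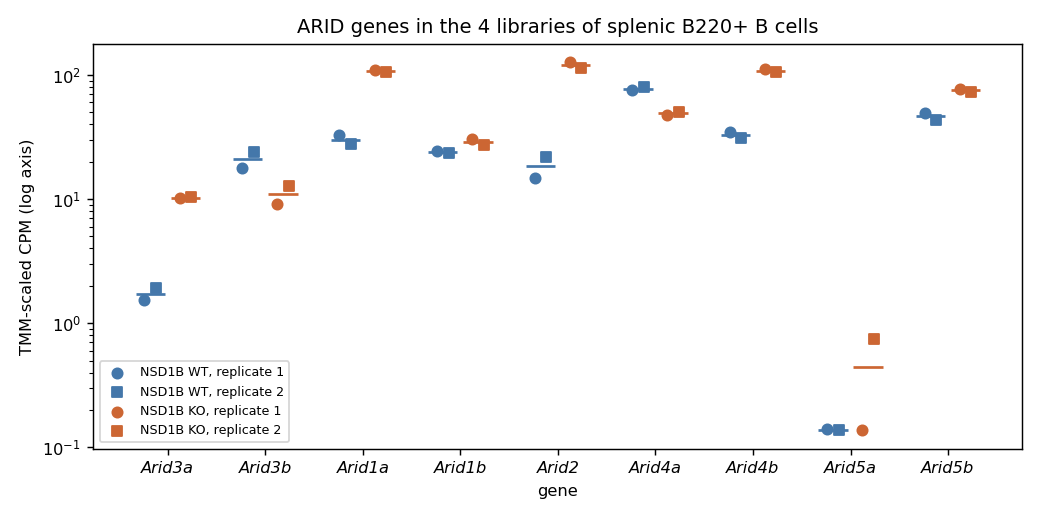
TMM-scaled CPM (log axis) of the 9 ARID genes in each library, with NSD1B WT in blue, NSD1B KO in orange, circles for replicate 1, squares for replicate 2 and lines for the mean of 2 libraries. Arid3a moved from 1.73 to 10.2 CPM, and Arid2 from 18.4 to 120 CPM, near Arid1a and Arid4b (both 108 CPM) in NSD1B KO.

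Arid3a had 11 and 14 counts in NSD1B WT and 73 and 69 counts in NSD1B KO. It was scarce in both NSD1B WT libraries and the groups did not overlap. In TMM-scaled CPM this was 1.54 and 1.92 against 10.1 and 10.3, a 5.85-fold rise (log2 fold change 2.55, SE 0.35, adjusted p = 6.39e-09 by edgeR). The 95% interval of the log2 fold change was 1.85 to 3.25. Counting error alone gave a ratio of 5.90 with a 95% interval of 3.84 to 9.42. Among 3294 tested genes within 2-fold of its mean level, 20.2% rose by as much or more in NSD1B KO.

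Arid3b, which like ARID3A encodes a factor binding A/T-rich DNA, went the other way. It had 128 and 175 counts in NSD1B WT and 66 and 86 in NSD1B KO, and both NSD1B KO libraries lay below both NSD1B WT libraries. The mean fell from 20.9 ± 4.26 to 11.0 ± 2.55 CPM (SD, n = 2), a 1.91-fold fall (log2 fold change -0.94, SE 0.21, adjusted p = 7.19e-05 by edgeR). Within each library, Arid3a had 0.0859 and 0.0800 counts per Arid3b count in NSD1B WT. In NSD1B KO this ratio was 1.11 and 0.802, so the counts of the pair were far apart in NSD1B WT and close in NSD1B KO. The third gene of the subfamily, Arid3c, had 0 counts in 3 libraries and 5 in NSD1B KO replicate 2.

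Of the 3 SWI/SNF members, Arid1a and Arid2 rose and Arid1b, the alternative to Arid1a in BAF, did not pass the threshold. Arid1a had 232 and 203 counts in NSD1B WT and 792 and 709 in NSD1B KO, a 3.58-fold rise (log2 fold change 1.84, SE 0.11, adjusted p = 4.55e-20 by edgeR). Arid1b had 175 and 172 counts in NSD1B WT and 220 and 184 in NSD1B KO. Its log2 fold change was 0.27 (SE 0.15, adjusted p = 0.1 by edgeR), with a 95% interval of -0.04 to 0.58. With the trend of counts with exon length and GC content removed, Arid1b passed the threshold (log2 fold change 0.39, adjusted p = 0.0152 by edgeR). It passed in 2 of the 14 alternatives run. There were 1.33 and 1.18 Arid1a counts per Arid1b count in NSD1B WT and 3.60 and 3.85 in NSD1B KO. The difference of the 2 log2 changes, picked with the values in view, was 1.57 with a 95% interval of 1.13 to 2.01, adjusted over 2 such pairs.

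Arid2, the ARID subunit of PBAF, had the highest fitted fold change of the 8 tested members, though it could not be separated from that of Arid3a. It was counted 106 and 161 times in NSD1B WT and 909 and 765 times in NSD1B KO. The groups were far apart although the NSD1B WT libraries differed from each other, at 14.8 and 22.0 CPM. The rise was 6.5-fold (log2 fold change 2.70, SE 0.13, adjusted p = 4.04e-24 by edgeR). Among the 2489 genes at up to 2-fold higher or lower levels, 2.49% rose as much, compared with 6.37% for Arid1a and 7.22% for Arid4b among genes of their own levels. With each library left out in turn the log2 fold change of Arid2 stayed between 2.48 and 3.04.

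**Figure D2:**
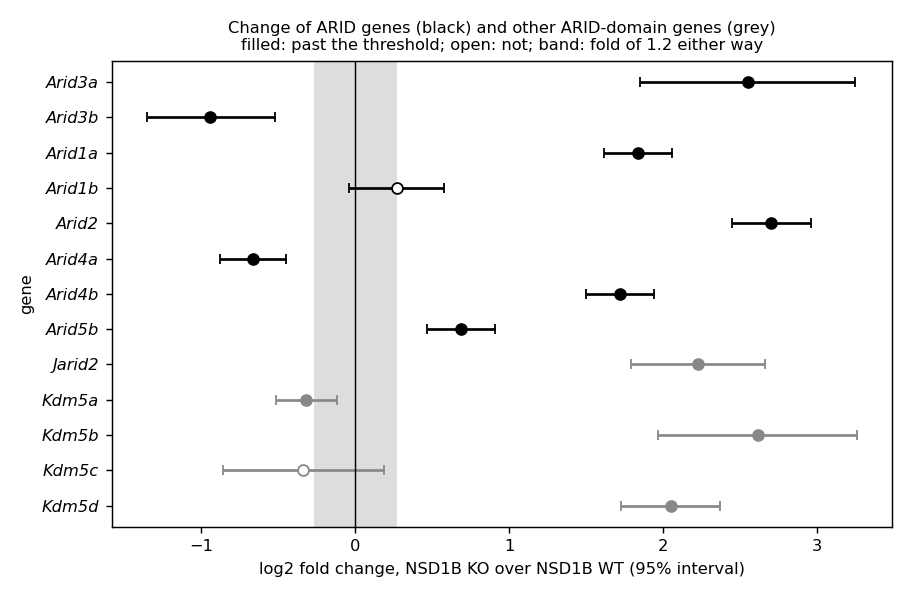
Log2 fold change of NSD1B KO over NSD1B WT with its 95% interval for the 8 tested ARID genes (black) and 5 other genes with an ARID domain (grey). Filled points passed the threshold, the open points Arid1b (0.27) and Kdm5c (-0.34) did not, and the grey band covers a fold change of 1.2 either way.

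The paralogs Arid4a and Arid4b changed in opposite directions. Arid4a had 543 and 578 counts in NSD1B WT and 344 and 338 in NSD1B KO. It fell from 77.5 ± 2.18 to 49.0 ± 1.72 CPM (log2 fold change -0.66, SE 0.11, adjusted p = 2.46e-07 by edgeR). Arid4b had 249 and 227 counts in NSD1B WT and 806 and 706 in NSD1B KO. It rose from 32.9 ± 2.68 to 108 ± 5 CPM (log2 fold change 1.72, SE 0.11, adjusted p = 2.57e-19). By counts Arid4a led the pair in NSD1B WT, with 0.459 and 0.393 Arid4b counts per Arid4a count. Arid4b led by counts in NSD1B KO, with 2.34 and 2.09. Per length of annotated exon the ratio was 0.152 and 0.13 in NSD1B WT and 0.775 and 0.691 in NSD1B KO. Arid4a thus stayed ahead by that measure, and the order in NSD1B KO turns with the length used, as described below. The difference of their log2 changes, picked in the same way, was -2.38 (95% interval -2.73 to -2.03, adjusted over 2 pairs). Ggps1, which shares an exon stretch with Arid4b on the opposite strand, rose as well, with 73 and 96 counts in NSD1B WT and 427 and 337 in NSD1B KO (log2 fold change 2.23, SE 0.16).

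Arid5b rose and Arid5a was hardly counted. Arid5b had 354 and 318 counts in NSD1B WT and 556 and 491 in NSD1B KO, a 1.62-fold rise without overlap (log2 fold change 0.69, SE 0.11, adjusted p = 1.68e-07 by edgeR). Arid5a had 1 count in each of 3 libraries and 5 in NSD1B KO replicate 2. Its ratio of 3.11 has a 95% counting interval of 0.557 to 31.6, and no difference was detectable at this depth.

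**Figure D3:**
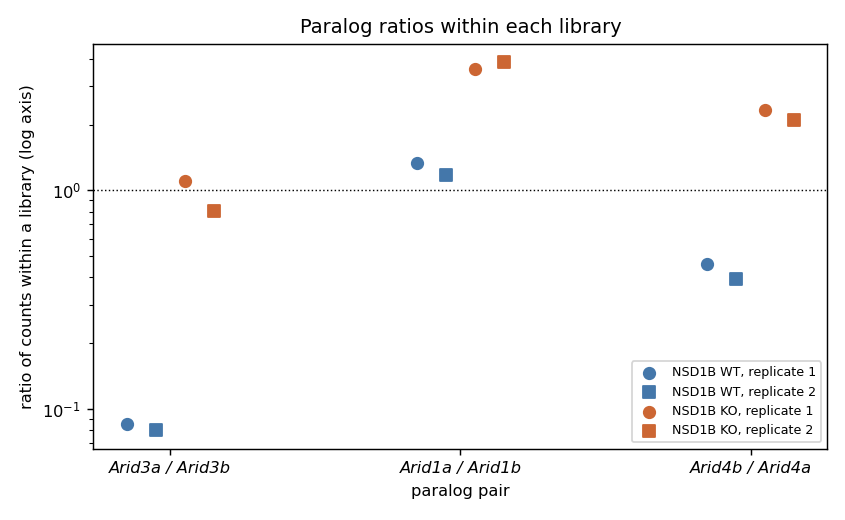
Ratio of counts of 2 paralogs within each library (log axis), for Arid3a over Arid3b, Arid1a over Arid1b and Arid4b over Arid4a, with NSD1B WT in blue and NSD1B KO in orange. The dotted line marks equal counts, and for each pair both NSD1B KO libraries lay above both NSD1B WT libraries. Counts are not scaled for exon length.

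Set against its paralogs, Arid3a changed by more than 4 of 7 and could not be separated from the other 3. Differences of log2 fold change were taken from the same fit, with 95% intervals adjusted over the 7 comparisons. Arid3a minus Arid3b was 3.48 (interval 2.34 to 4.62), and Arid3a minus Arid4a was 3.21 (2.19 to 4.23). The difference was 2.28 against Arid1b (1.21 to 3.35) and 1.86 against Arid5b (0.83 to 2.88). These 4 intervals lie above 0. Against Arid1a it was 0.71 (-0.32 to 1.74), against Arid4b 0.83 (-0.20 to 1.86) and against Arid2 -0.15 (-1.19 to 0.89). With so few Arid3a counts in NSD1B WT, these 3 intervals still allow differences of about 1 on the log2 scale or more. After removal of the length and GC trend, the difference against Arid4b was 1.39 and its interval lay above 0, and that against Arid2 turned to 0.31 with 0 still inside its interval.

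**Figure D4:**
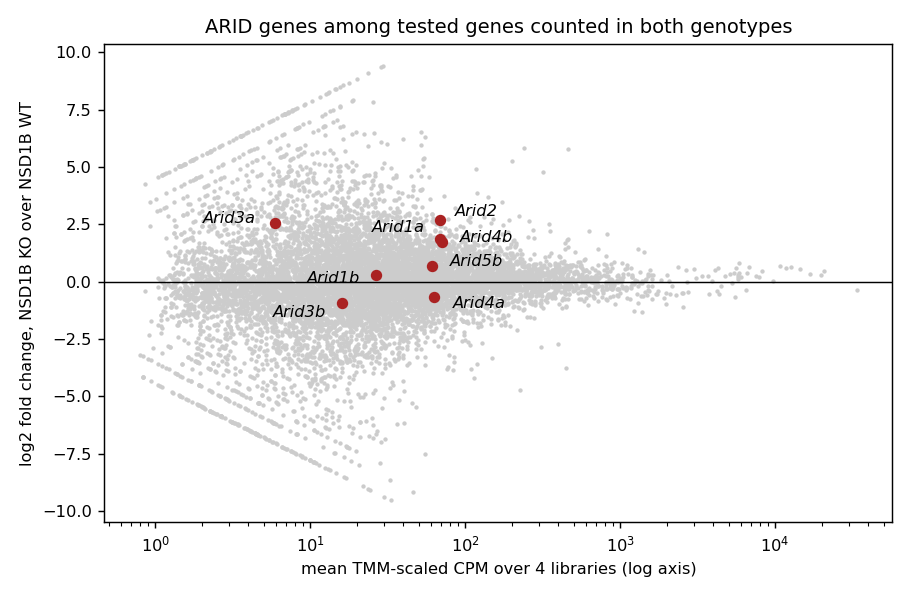
Mean TMM-scaled CPM (log axis) against log2 fold change for 9454 tested genes with counts in both genotypes (grey), with the tested ARID genes in red. Arid3a has the lowest level of the 8 and Arid2, Arid1a and Arid4b lie above most genes of their level.

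Levels between genes were compared as RPKM, the TMM-scaled CPM per kilobase of annotated exon (union of exons). Summed over the 9 members the level was 29.6 RPKM in NSD1B WT and 48.7 RPKM in NSD1B KO. In NSD1B WT Arid4a led with 13.8 ± 0.388 RPKM (SD, n = 2) and made up 46.3% and 47.0% of the sum. Arid5b followed at 4.62 ± 0.425. The next group, Arid1a (2.62 ± 0.289), Arid3b (2.62 ± 0.534), Arid4b (1.94 ± 0.158), Arid1b (1.91 ± 0.0540) and Arid2 (1.72 ± 0.473), contains neighbours that do not differ beyond their spread. Arid3a was eighth at 0.311 ± 0.0478 RPKM, and Arid5a last at 0.0110. In NSD1B KO Arid2 (11.2 ± 0.830), Arid1a (9.39 ± 0.288) and Arid4a (8.73 ± 0.307) stood at the top, followed by Arid5b (7.47 ± 0.301) and Arid4b (6.39 ± 0.295). Arid1b was at 2.30 ± 0.181, Arid3a at 1.83 ± 0.0142 and Arid3b at 1.38 ± 0.320 RPKM. Arid3a made up 0.948% and 1.15% of the sum in NSD1B WT and 3.68% and 3.85% in NSD1B KO. The order depends on the length used, above all for Arid4b, whose exons cover 16965 bases in all and 5864 in its longest transcript. Per length of the longest transcript Arid4b led in NSD1B KO at 18.5 RPKM. Arid3a was then eighth in both genotypes, and in NSD1B KO its 1.90 RPKM lay below the 2.63 RPKM of Arid3b, so the order of this pair in NSD1B KO turns with the length used.

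Other genes with an ARID domain were also examined, namely Arid3c, the Polycomb cofactor Jarid2 and the H3K4 demethylases of the KDM5 group. The test covered 5 of these 6 genes, without Arid3c, which had too few counts. It called 3 of them higher and 1 lower in NSD1B KO, beside 37.1% and 41.1% of all tested genes. Jarid2 had 38 and 43 counts in NSD1B WT and 193 and 173 in NSD1B KO, a 4.68-fold rise. Kdm5b had 12 and 19 against 107 and 78 counts, a rise of 6.14-fold from a low level like that of Arid3a. Kdm5d, on the Y chromosome, had 89 and 77 counts in NSD1B WT and 365 and 300 in NSD1B KO (4.15-fold). Kdm5a, the KDM5 gene with the most counts, fell by 0.32 on the log2 scale, a call lost without NSD1B WT replicate 2 or without NSD1B KO replicate 2 (both -0.25, short of the fold threshold). Its X-linked relative Kdm5c did not pass (log2 fold change -0.34, SE 0.26, adjusted p = 0.238 by edgeR).

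Of 9 genes tied to ARID3A itself, 5 had enough counts. The test called 2 of them higher and 3 lower, beside 37.1% and 41.1% of all tested genes. ARID3A acts on the heavy chain locus together with the kinase BTK and the factor TFII-I, the product of Gtf2i. Btk had 111 and 136 counts in NSD1B WT and 8 and 13 in NSD1B KO (log2 fold change -3.48, SE 0.32, adjusted p = 1.25e-13 by edgeR). Gtf2i had 87 and 80 counts in NSD1B WT and 2 and 0 in NSD1B KO, a ratio of 0.0124 with a counting interval of 0.00149 to 0.0456. Ighm, the mu heavy chain, fell from 4810 ± 37.9 to 3610 ± 54.2 CPM (log2 fold change -0.41, SE 0.07). Once the trend with length and GC content was removed, the Ighm value was -0.06 and no longer past the threshold. The nuclear body gene Sp100 rose 1.58-fold and Rb1, the retinoblastoma gene, 3.78-fold. Lin28a and Lin28b, RNA-binding proteins of the fetal program that can raise ARID3A, and E2f1 had 0 counts in all 4 libraries.

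Partner subunits of the SWI/SNF members did not move as a block. Of 16 tested BAF subunits, 7 were higher and 7 lower, beside 37.1% and 41.1% of all tested genes. The median log2 fold change of these subunits was -0.16. Of the ATPase genes, Smarca2 was higher (log2 fold change 0.43, SE 0.12) and Smarca4 lower (-0.46, SE 0.17), but the Smarca4 call was lost in 6 of 14 alternatives. These were DESeq2 (adjusted p = 0.0965), limma-voom (0.0685), leaving out NSD1B WT replicate 2 (0.0858) or NSD1B KO replicate 1 (0.235), and both fits without the length and GC trend (log2 fold change -0.08, adjusted p = 0.678 and 0.668). The scaffold genes Smarcc1 and Smarcc2 fell, Smarcc2 from 138 and 142 counts to 4 and 8 (log2 fold change -4.46, SE 0.35). Dpf2, which marks BAF, fell from 472 and 558 counts to 80 and 87. In contrast Ss18, its neuronal relative Ss18l1 and Bcl7c rose. Ss18l1 had 0 counts in NSD1B WT and 54 and 38 in NSD1B KO, at least 31.8-fold higher against a floor of 3 counts over the group. Of the 3 PBAF subunits, Pbrm1 (log2 fold change 0.98, SE 0.11) and Brd7 (0.68, SE 0.13) rose with Arid2, and Phf10 fell (-1.37, SE 0.28).

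For the ARID4 partners, 4 of 13 tested SIN3 complex genes were higher, 3 were lower and 6 did not pass. Over all tested genes 37.1% were higher and 41.1% lower. The 2 scaffolds of the complex moved in opposite directions. Sin3a had 161 and 176 counts in NSD1B WT and 56 and 58 in NSD1B KO (log2 fold change -1.51, SE 0.21). Sin3b had 410 and 426 against 819 and 705 counts (0.92, SE 0.10). Among the deacetylases Hdac2 rose 3.33-fold, and Hdac1 was not past the threshold (log2 fold change 0.17, SE 0.10) except with the length and GC trend removed, where it was. Brms1l had 2 and 1 counts in NSD1B WT and 185 and 202 in NSD1B KO, a ratio of 134 with a counting interval of 45.5 to 652. Of the ARID5 list, 3 of 3 tested genes were called lower, beside 41.1% of all tested genes, but 2 of these calls were unstable. The genes were Phf2 (12 and 21 against 10 and 3 counts), Stat3 and Zc3h12a, the RNase that opposes ARID5A on cytokine mRNAs (51 and 56 against 4 and 9 counts). Il6, a target of ARID5A, had 0 counts in all libraries. The Phf2 call was lost in 8 of 13 alternatives, among them DESeq2 (adjusted p = 0.197) and limma-voom (0.0987), and without any 1 of NSD1B WT replicate 1, NSD1B WT replicate 2 and NSD1B KO replicate 2 (0.0802, 0.454 and 0.333 by edgeR). That of Stat3 was lost in 5 of 14, with DESeq2 (adjusted p = 0.0781), without NSD1B WT replicate 1 or NSD1B KO replicate 1 (0.0966 and 0.0524 by edgeR), and in both fits without the length and GC trend (log2 fold change -0.22).

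**Figure D5:**
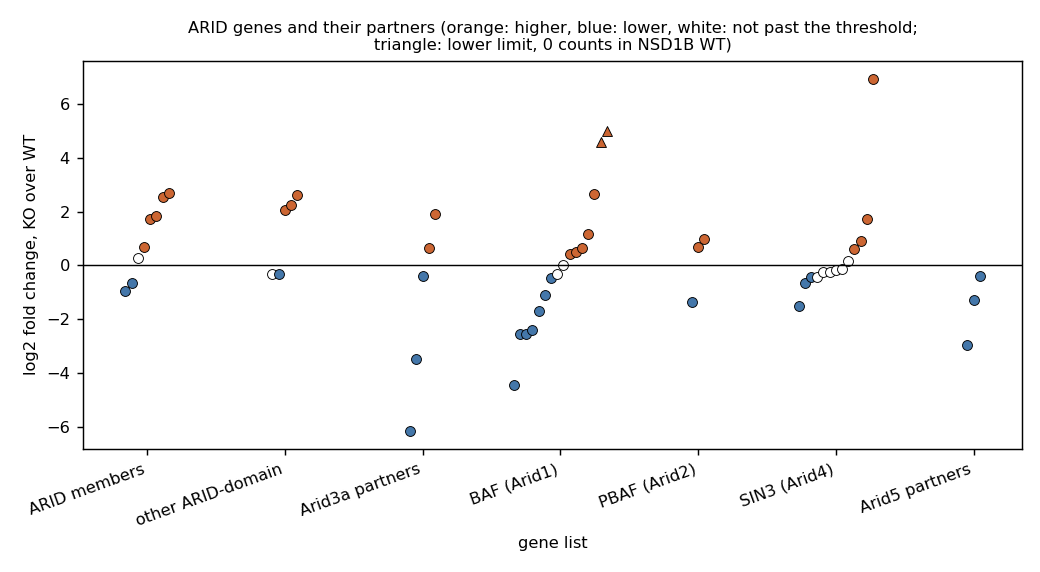
Log2 fold change of NSD1B KO over NSD1B WT for each tested gene of the ARID set and 6 lists (other ARID-domain genes and partners), with higher genes in orange, lower genes in blue and genes not past the threshold in white. Triangles are lower limits for Ss18l1 and Bcl7a, which had 0 counts in NSD1B WT, and the BAF list has 7 genes on each side.

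Over the list of other ARID-domain genes and the 5 partner lists together, 18 of 45 tested genes were higher and 18 were lower, beside 37.1% and 41.1% of all tested genes, so their share is near that of all genes. The median log2 fold change was -0.23 against -0.10 for all tested genes. The even counts depend on the setting. At the stricter threshold (adjusted p below 1e-05 and log2 fold change above 0.5) 15 were higher and 9 lower. Of all 11657 tested genes, 3199 were then higher and 3468 lower. Without the length and GC trend 20 were higher and 13 lower, beside 4745 and 4230 of all tested genes.

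The genomic neighbours of Arid3a were taken as the 3 nearest tested genes on each side on chromosome 10. On the side before it, R3hdm4 (79910052 to 79921208) had 201 and 211 counts in NSD1B WT and 1 and 1 in NSD1B KO. The R3hdm4 ratio was 0.00504 with a counting interval of 0.000608 to 0.0183. Gm26602, whose span lies inside that of R3hdm4, had 44 and 26 counts and then 0 and 0, at least 22.5-fold lower, and their reads may not be separable. Med16, a Mediator subunit (79894708 to 79908923), had 78 and 74 counts and then 1 and 3. On the side after it, Wdr18 (79960152 to 79970203) fell from 494 and 442 to 261 and 214 counts (log2 fold change -0.93, SE 0.12). Grin3b did not pass, with 14 and 21 against 11 and 14 counts, and Tmem259, whose span overlaps that of Grin3b, rose from 31 and 29 to 63 and 68. The nearest tested gene on each side, R3hdm4 and Wdr18, thus fell where Arid3a rose, while 41.1% of all tested genes were called lower.

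The 5 tested genes nearest to Arid3a in log2 CPM over the 4 libraries, by Euclidean distance, were Ppme1 (distance 0.28), Sf3a2 (0.35), Zfp827 (0.39), Gm28177 (0.40) and Rftn2 (0.41). Ppme1, a methylesterase of protein phosphatase 2A, had 12 and 17 counts in NSD1B WT and 70 and 67 in NSD1B KO. With 4 libraries this likeness is a description of level and change alone.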

How the data were processed

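RNA of B220+ splenic B cells was sequenced as paired-end reads of 150 bp, which the authors mapped to mm10 with Bowtie2. They deposited whole-number counts per gene, with no normalization or length scaling. The FPKM from Cufflinks that their Methods describe were not used here, and how genes were counted (program, strandedness, gene models) is not given in the sources used here. Genotypes came from the sample labels.

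Counts were scaled by TMM and filtered by filterByExpr (minimum count 10, minimum total 15) in edgeR 4.0.16 (R 4.3.3). The quasi-likelihood test compared NSD1B KO with NSD1B WT over all 11657 genes kept, with Benjamini-Hochberg adjustment over them. The Methods ask for a fold change above 1.2 and p below 0.05, and p was taken as adjusted. Intervals of differences between 2 genes added their squared standard errors, an approximation that treats the genes as independent, with Bonferroni adjustment. No exact permutation test was made, because 2 libraries against 2 cannot reach 0.05.

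GENCODE M21 held 99.5% of the 55401 identifiers and supplied exon lengths, positions and GC content. Rows that name no gene stayed out of library sizes (44.3% to 44.6% of reads on no gene, 11.2% to 13.2% not unique). The mean chi-square per gene between replicates was 3.02 in NSD1B WT and 3.90 in NSD1B KO, so none is a repeat deposit, and edgeR's common coefficient of variation was 0.0735. Counting intervals (exact, 95%) and floors cover counting error alone.

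Genes were named by a fixed rule: the members, Nsd1, lists of ARID partners and cell markers, the 3 neighbours of Arid3a on each side and the 5 genes nearest to it in pattern. Ggps1, Xist, Ddx3y and Eif2s3y were added after values were seen, and which list genes and promoters are described was also chosen then. The members and lists were chosen with earlier results of these data known. Alternatives were 3 other scalings, DESeq2 1.42.0, limma-voom (3.58.1), 2 other filters, each library left out, the replicate block, removal of a length and GC trend by loess (span 0.5) without and with that block, a stricter threshold and another transcript length.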

Additional observations from a re-analysis of the deposited data

How the results depend on the processing

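The calls of the 8 tested members kept direction and side of the threshold under the alternatives run, apart from Arid1b after removal of the length and GC trend, and Arid3b at the stricter threshold below. Removing the trend shifted the log2 fold change of a gene by a median of 0.14. The median log2 fold change of all tested genes went from -0.1 to 0.08. The share of calls that were higher went from 47.4% to 52.9%. The Arid3a log2 fold change was 2.43 to 2.74 with each library left out and 2.43 to 2.94 over all settings. Differences of Arid3a against its paralogs changed sign or call only with the length and GC trend removed, without and with the replicate block alike. The value against Arid2 turned from -0.15 to 0.31 in both, and that against Arid4b went from 0.83 to 1.39 in both, with its interval above 0. At the stricter threshold (adjusted p below 1e-05 and log2 fold change above 0.5) 1 member and 9 partner genes were lower, in place of 2 and 18. Higher were 5 members and 15 partner genes, in place of 5 and 18. Of all 11657 tested genes, 3199 were higher and 3468 lower at that threshold. The Arid3a level in NSD1B KO moved from 1.83 RPKM to 1.90 per length of the longest transcript and to 1.79 with library size alone. The replicate number as a block alone left 5 members higher and 2 lower and Arid3a at 2.55, and changed the call of Phf2 alone among the genes of the ARID and partner lists compared (adjusted p = 0.0851 by edgeR). Samples of the same number are not known to be paired, and their deviations correlated at 0.06. Of 872 values under the alternatives, 820 kept their call or size, 23 lost a call, 6 gained one, 21 moved and 2 changed sign. The cause of these shifts was not tested. Few counts limit Arid3a in NSD1B WT (25 in all) and Arid5a, and with 2 libraries per genotype Arid1b remains undecided.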

Other observations

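Genes that mark B cell subsets showed no common direction beside Arid3a. Of 7 tested genes on a B1 cell list, 3 were higher and 4 lower in NSD1B KO, beside 37.1% and 41.1% of all tested genes. Cd5, which marks B1a cells and also T cells, had 0 and 0 counts in NSD1B WT and 120 and 103 in NSD1B KO, at least 77.2-fold higher. Such absence from 1 genotype was seen in 2203 of the 11657 tested genes. Ctla4 had 35 and 22 counts in NSD1B WT and 198 and 167 in NSD1B KO. Bhlhe41, a transcription factor of B1 cells, had 3076 and 3300 against 1714 and 1566. Of 6 tested marginal zone genes, 1 was higher and 4 lower, among them Cr2, the gene of CD21, at 304 and 277 against 17 and 26 counts. Of 5 tested follicular genes, 2 were higher and 1 was lower. The gene that fell was Fcer2a, which encodes CD23 and went from 134 and 172 counts to 0 and 0, at least 98.2-fold lower.

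The Y-linked genes counted beside Kdm5d moved in opposite directions. Eif2s3y had 1014 and 988 counts in NSD1B WT and 169 and 184 in NSD1B KO, whereas Ddx3y had 624 and 641 against 914 and 875. Xist, transcribed from the inactive X of female cells, had 47 and 62 counts in NSD1B WT and 1 and 2 in NSD1B KO. Y-linked genes were thus counted in all 4 libraries, and the sex of the mice was not tested.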
